A study of Mus musculus with 9 samples.

Results

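The genes described here are the histone genes and the small structural RNA genes among those the authors listed as changed by MGH-CP1 in EHE17 cells. They were taken by annotation: rows of the authors' table with the biotype Mt_rRNA, Mt_tRNA, miRNA, misc_RNA, rRNA, scaRNA, snoRNA or snRNA, and rows whose symbol begins with Hist1h, Hist2h, Hist3h or Hist4h. This gave 25 of 471 listed genes. They were 12 histone genes, 5 mitochondrial tRNA genes, 4 genes annotated as miRNA, and 1 gene each of mitochondrial rRNA, rRNA, misc_RNA (Rn7sk) and scaRNA, with 0 snoRNA and 0 snRNA genes. Every row of the table had been picked on this same contrast: its adjusted p in the authors' deposited table lies under 0.05, and its log2 change is 1 or more in size. Levels and differences below are therefore descriptions of picked genes, and a gene of these classes outside the table was not analysed here. Here and below, the absence of a gene from this table does not show that it was unchanged.

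EHE17 is a mouse endothelial tumour cell line whose genotype, in every group, is labelled TC+/+ Cdkn2a -/-. The cells were given MGH-CP1 at 10 µM for 16 h or vehicle (DMSO), with 3 biological replicates in each group. The compound is an inhibitor of TEAD transcription factors that keeps them from being palmitoylated. The labels do not say whether the line is 1 clone or whether replicates were separate cultures, so the spread between libraries may be partly technical. Another group, given dinaciclib at 300 nM, shares the vehicle libraries, but 0 of the 25 genes were in its table of 251 genes. That table is labelled as one of cancer genes. Here and below, the absence of a gene from it therefore says nothing about the response of that gene to dinaciclib.

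The transcripts of these genes mostly end without a long poly(A) tail. Ribosomal RNA and the 7SK, small nuclear and small Cajal body RNAs have other 3' ends. Mitochondrial tRNAs end in CCA and are cut out of long transcripts of the mitochondrial genome. Replication-dependent histone messages end in a short stem loop that is bound by SLBP, and they are made mainly while DNA is copied. The libraries had been made from RNA captured on poly-T beads, so the counts give the part of each transcript pool that came through that selection, which was not measured here.

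All 25 genes were higher with MGH-CP1 than with vehicle. Of all listed genes 57.3% were higher, and of the other 446 rows 245 were. Together the 25 genes took 0.993%, 1.34% and 0.510% of all counts in MGH-CP1 replicates 1, 2 and 3, against 0.210%, 0.0994% and 0.0771% in vehicle replicates 1, 2 and 3. Most of this came from the rRNA gene CT010467.1 and the miRNA-annotated gene Gm23935. The other 23 genes took 0.0441% ± 0.0173 (SD, n = 3) against 0.00986% ± 0.00130. These are shares of a library, so a higher share cannot be told apart from a lower content of all other transcripts, and in bulk RNA fewer cells of a kind and less RNA per cell cannot be told apart either. The shares are not divided by gene length and do not rank the genes by transcript number.

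The miRNA-annotated genes are shown first because their sequences are nearly the same. All 4 are single-exon genes on 4 different chromosomes, taken from GENCODE M21 (GRCm38). By symbol, 0 of 4 matched an entry of the RefSeq miRNA table. Sequence and position were not compared with it, so this does not tell whether they are known miRNA genes. Capitals mark bases that differ from Gm23935. Gm23935 lies at chr16:11144125-11144181 (plus strand, in an intron of Zc3h7a, which runs the other way), Gm24270 at chr9:56223715-56223771 (minus strand, in an intron of Peak1), Gm24187 at chr13:9834469-9834525 (minus strand) and Gm25911 at chr1:167340369-167340424 (minus strand).
Gm23935: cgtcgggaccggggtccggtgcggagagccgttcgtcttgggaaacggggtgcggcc
Gm24270: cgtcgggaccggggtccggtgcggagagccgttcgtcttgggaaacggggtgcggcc
Gm24187: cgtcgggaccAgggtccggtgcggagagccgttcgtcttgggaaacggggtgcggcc
Gm25911: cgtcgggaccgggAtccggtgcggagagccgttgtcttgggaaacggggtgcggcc
Gm24270 is identical to Gm23935 over all 57 bases. Counted from the 5′ end of Gm23935, Gm24187 has the single substitution G11A, and Gm25911 has G14A and lacks the base at position 34. Each matched 5 other annotated genes at 90% identity or more, 3 of them the other listed ones, and Gm24245, which was not listed, holds the same bases as Gm23935 and Gm24270. A read inside shared bases cannot be placed on 1 of these genes by sequence alone, so the split of counts among the listed genes and their unlisted copies is uncertain. GC content was 71.4% to 73.7%.

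The first of these, Gm23935, took 0.333%, 0.478% and 0.142% of counts in MGH-CP1 replicates 1, 2 and 3. In vehicle replicates 1, 2 and 3 the shares were 0.0746%, 0.0347% and 0.0279%. The groups did not overlap, and replicate 3 was the lowest of the MGH-CP1 libraries. The log2 change was 2.80 with SE 0.497 (adjusted p = 0.000484 by the quasi-likelihood test of edgeR, Benjamini-Hochberg over all 355 tested rows). Of those 355 rows, 100% passed, 49.3% higher and 50.7% lower. All had been picked on these very libraries, so passing adds nothing about a gene. Among the 25 genes, 16 had enough counts to be tested, and 16 were called higher and 0 lower.

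Gm24270, with the same sequence, stood at 228, 280 and 75.2 CPM (counts-per-million of the library total) with MGH-CP1 and at 8.48, 4.25 and 3.72 CPM in vehicle. MGH-CP1 replicate 3 was again the lowest of its group, and the groups did not overlap. Its log2 change was 5.15 with SE 0.513, larger than that of its twin. The counts of Gm23935 over those of Gm24270 were accordingly 88.0, 81.8 and 75.1 in the vehicle libraries and 14.7, 17.05 and 18.9 in the MGH-CP1 libraries. The groups did not overlap in this ratio, although the 57 bases are the same, and the bases outside the genes were not examined.

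Gm25911 had 79, 109 and 25 counts with MGH-CP1 and 8, 0 and 1 in vehicle. The log2 change of 5.16 (SE 0.817) became 7.50 without vehicle replicate 1, which holds 8 of the 9 vehicle counts. Gm24187 had 15, 25 and 2 counts against 10, 3 and 2. It was the only gene of the 25 whose groups overlapped: MGH-CP1 replicate 3, at 0.0845 CPM, lay below vehicle replicate 1, at 0.314 CPM. Its deposited adjusted p of 0.0496 in the authors' deposited table was the highest of the 25.

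**Figure D1:**
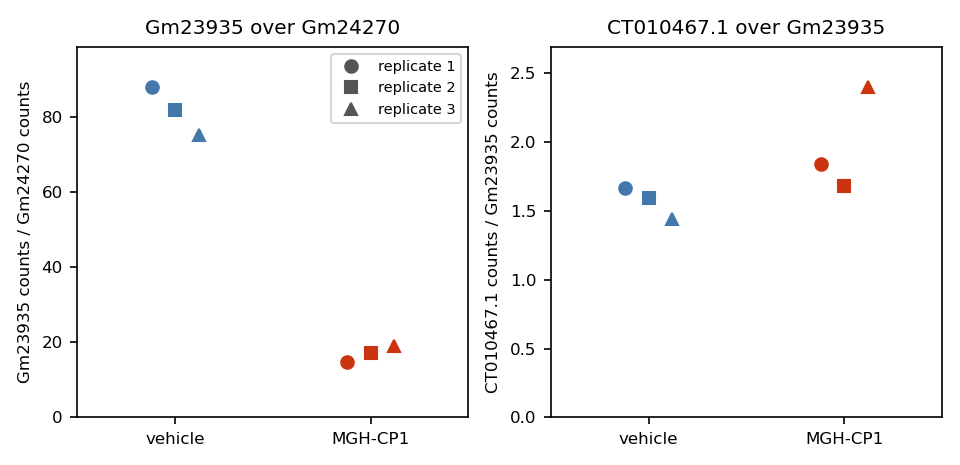
Ratio of counts in each library, vehicle in blue and MGH-CP1 in red, with a mark for each replicate; both vertical axes are ratios without unit and start at 0. Left, Gm23935 over the identical Gm24270 lay between 75.1 and 88.0 in vehicle and between 14.7 and 18.9 with MGH-CP1. Right, CT010467.1 over Gm23935 lay between 1.44 and 1.67 in vehicle and between 1.68 and 2.40 with MGH-CP1.

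CT010467.1 (ENSMUSG00000106106, chr17:39846353-39848827, minus strand) is the only member annotated as rRNA. The stretch below is shown because it tells what the gene holds: it is the strand opposite to the annotation, at chr17:39846958-39847017 (plus strand), and the capitals mark a stretch kept in small-subunit ribosomal RNAs across life. Searched on both strands, the letters in capitals were found in 3 annotated genes: CT010467.1, Gm42418, which overlaps it by 1831 bases on the opposite strand, and Msl2.
CT010467.1 opposite strand: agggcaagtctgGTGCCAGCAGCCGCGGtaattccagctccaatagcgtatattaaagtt
AY036118 overlaps CT010467.1 by 923 bases on the same strand, all within the stretch shared with Gm42418. The libraries carry no strand mark, so reads of these 3 overlapping genes cannot be told apart by strand. Neither Gm42418 nor AY036118 was in the table.

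CT010467.1 took 0.614%, 0.803% and 0.342% of counts in MGH-CP1 replicates 1, 2 and 3, and 0.125%, 0.0554% and 0.0402% in vehicle replicates 1, 2 and 3. The lowest MGH-CP1 library was above the highest vehicle library. The ratio of the group means was 7.99, and the log2 change was 3.00 with SE 0.483, or 3.62 without vehicle replicate 1, the highest vehicle library. The ratio of CT010467.1 to Gm23935 was 1.84, 1.68 and 2.40 with MGH-CP1 and 1.67, 1.59 and 1.44 in vehicle. It thus stayed between 1.44 and 2.40 while both genes were higher with MGH-CP1. The groups did not overlap in this ratio either, although the lowest MGH-CP1 value, 1.68, lay just above the highest vehicle value, 1.67. The nearest other listed gene, the long non-coding RNA gene Gm26917, lies 11 bases away on the other strand and is named here after its values were seen. It stood at 140 ± 46.9 CPM against 55.5 ± 3.05 (SD, n = 3). The counts of CT010467.1 were 41.8, 43.7 and 37.7 times those of Gm26917 with MGH-CP1 and 21.1, 10.3 and 7.51 times in vehicle, so the neighbours did not change by the same factor.

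Of the mitochondrial genes, the small-subunit rRNA gene mt-Rnr1 (chrM:70-1024) stood at 195, 277 and 146 CPM with MGH-CP1 and at 93.4, 79.8 and 76.7 CPM in vehicle. The groups did not overlap, and the ratio of the means was 2.47. The log2 change was 1.31 with SE 0.234 (adjusted p = 0.000507, quasi-likelihood test of edgeR, Benjamini-Hochberg). None of the 13 mitochondrially encoded messenger RNA genes was in the table, and neither was any of 12 genes for mitochondrial RNA processing. They may have changed by less than the cut-offs of the table.

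Mitochondrial tRNAs carry amino acids to the ribosomes of the organelle, and 5 of their genes were listed. The sequences are given with the anticodon in capitals because the genes lie in close groups. The genes mt-Ti (isoleucine, chrM:3706-3774, plus strand) and mt-Tq (glutamine, chrM:3772-3842, minus strand) overlap by 3 bases on opposite strands. The genes mt-Th (histidine, chrM:11546-11612, plus strand) and mt-Ts2 (serine, chrM:11613-11671, plus strand) abut with a gap of 0 bases, and mt-Tc (cysteine, chrM:5192-5257, minus strand) stands apart from them.
mt-Ti: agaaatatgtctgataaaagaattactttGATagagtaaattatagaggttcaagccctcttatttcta
mt-Tq: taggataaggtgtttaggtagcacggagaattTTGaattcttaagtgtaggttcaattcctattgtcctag
mt-Tc: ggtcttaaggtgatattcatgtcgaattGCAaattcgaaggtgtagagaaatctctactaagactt
mt-Th: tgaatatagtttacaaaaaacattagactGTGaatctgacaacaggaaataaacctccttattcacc
mt-Ts2: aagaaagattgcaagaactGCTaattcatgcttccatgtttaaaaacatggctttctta
The genes are 59 to 71 bases long, so a longer read runs into the next gene.

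The mt-Tc counts were the largest and changed least, at 12.1, 15.5 and 14.3 CPM against 7.28, 6.38 and 5.82 CPM. Its groups did not overlap, and its log2 change of 1.10 (SE 0.153) was the smallest of the 16 tested members. The histidine gene mt-Th stood at 2.80, 1.505 and 4.18 CPM with MGH-CP1 and 0.251, 0.586 and 0.475 CPM in vehicle. Its neighbour mt-Ts2 stood at 3.13, 1.81 and 4.48 CPM against 0.345, 0.322 and 0.450 CPM.

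Both were highest in MGH-CP1 replicate 3 and lowest in replicate 2, the reverse of the order seen in CT010467.1 and the miRNA-annotated genes. The ratio of mt-Th counts to mt-Ts2 counts was 0.895, 0.833 and 0.934 in the MGH-CP1 libraries and 0.727, 1.82 and 1.06 in the vehicle libraries, where each gene had 8 to 20 counts. The log2 changes were 2.68 (SE 0.416) for mt-Th and 3.06 (SE 0.368) for mt-Ts2. The overlapping pair had few counts: mt-Ti had 10, 6 and 11 against 1, 3 and 1, and mt-Tq had 9, 10 and 6 against 1, 0 and 2. The share of mt-Tq, pooled over each group, was 13.01 times higher with MGH-CP1 (exact 95% interval 3.97 to 67.3, counting error only). That of mt-Ti was 8.43 times higher (3.20 to 28.0). Neither passed the count filter.

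Rn7sk makes the 7SK RNA, the scaffold of a nuclear particle in which HEXIM proteins inhibit P-TEFb, a kinase of transcription elongation. Its start (chr9:78175526-78175633, minus strand) are shown because HEXIM binds the hairpin at this end. Capitals mark GATC, a motif that is its own reverse complement.
Rn7sk start: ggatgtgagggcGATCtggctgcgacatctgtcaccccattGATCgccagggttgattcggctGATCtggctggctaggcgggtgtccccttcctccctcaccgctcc
GATC occurs 3 times in this window, and 3 or more occurrences were found in a first window of the same length in 0.411% of 138239 annotated transcripts long enough to hold it. Other annotated genes repeat parts of Rn7sk: 12 matched at 90% identity or more over at least 50 bases, so some reads could fall on either.

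The 7SK gene had 63, 81 and 57 counts with MGH-CP1 and 29, 5 and 13 in vehicle, or 2.59, 4.06 and 2.41 CPM against 0.910, 0.146 and 0.325 CPM. The groups did not overlap, and vehicle replicate 1 was far above the other vehicle libraries. The log2 change was 2.73 with SE 0.484, or 3.62 without that library. None of the 7 genes for P-TEFb and the 7SK particle proteins (Larp7, Mepce, Hexim1, Hexim2, Cdk9, Ccnt1 and Ccnt2) was in either table, and neither was any of 26 genes for RNA polymerase III and its factors, which transcribe Rn7sk.

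Gm22009 (ENSMUSG00000089417, chr3:69085105-69085447, minus strand) is the scaRNA gene and lies in an intron of Kpna4, on the same strand. Small Cajal body RNAs guide chemical modification of spliceosomal RNAs. The start of the gene (chr3:69085388-69085447) is shown for the letters ATGATGA, a form of the C box of box C/D guide RNAs.
Gm22009 first 60 bases: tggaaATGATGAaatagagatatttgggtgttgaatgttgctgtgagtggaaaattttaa
Searched on both strands, ATGATGA was in the first 60 bases of 1% of 141515 annotated transcripts and of 17.6% of 1553 snoRNA and scaRNA transcripts. Gm22009 had 70, 75 and 69 counts with MGH-CP1 and 8, 1 and 6 in vehicle, or 2.88, 3.76 and 2.91 CPM against 0.251, 0.0293 and 0.150 CPM. The MGH-CP1 libraries lay close together and all far above vehicle. The log2 change was 4.44 with SE 0.425 (adjusted p = 1.30e-05, quasi-likelihood test of edgeR, Benjamini-Hochberg). The ratio of mean shares, 4.47 on the log2 scale, was 5.15 without vehicle replicate 1. Kpna4 was not in the table, and none of the 10 genes for box C/D and H/ACA particle proteins was.

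**Figure D2:**
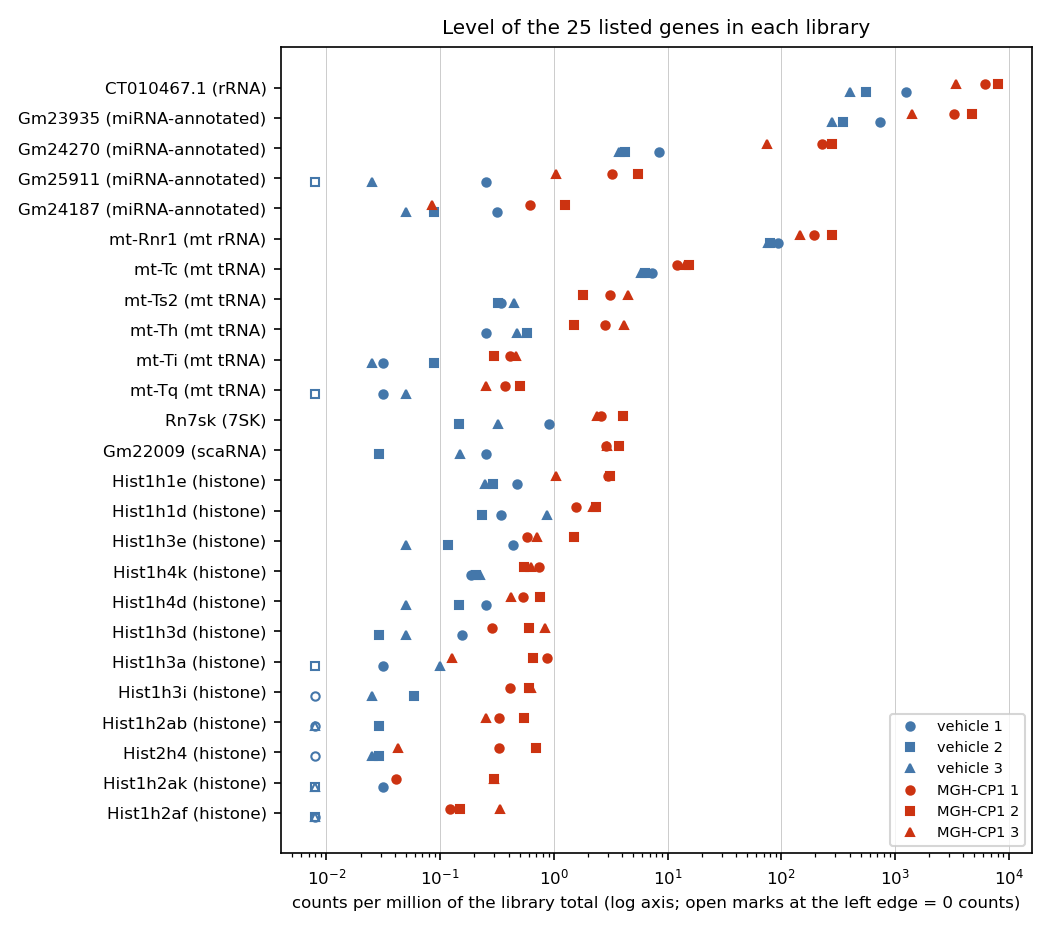
Level of each of the 25 genes in each library, in counts-per-million (CPM) of the library total on a log axis, vehicle in blue and MGH-CP1 in red, with a mark for each replicate and open marks at the left edge for 0 counts. In 24 genes all MGH-CP1 marks lie to the right of all vehicle marks; the exception is Gm24187.

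In 24 of the 25 genes the lowest MGH-CP1 library was above the highest vehicle library, as in 55.4% of all 471 rows. That share leaves out rows lower with MGH-CP1, and the groups overlapped in only 11 of the 471 rows. Of the other 446 rows 245 were higher, and 237 were separated in the higher direction. Separate groups were thus common among all listed genes and not particular to these 25. That separation can rest on very few reads: Hist1h2ak had a single count both in the lowest MGH-CP1 library and in the highest vehicle library. Without MGH-CP1 replicate 3 the groups were separate in all 25 genes, but the number for all 471 rows was not taken in that setting.

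Histone genes encode the proteins that package DNA. H2A, H2B, H3 and H4 form the core of the nucleosome, and the linker H1 binds the DNA between nucleosomes. All 12 listed histone genes carry symbols of the replication-dependent clusters, 11 of them on chromosome 13 and Hist2h4 on chromosome 3. They numbered 2 H1, 3 H2A, 4 H3 and 3 H4 genes, with no H2B gene. Their summed level was 8.80, 11.8 and 7.56 CPM with MGH-CP1 and 1.92, 1.14 and 1.65 CPM in vehicle. All 12 were higher, with separate groups in each. The count filter passed 6 of them, all called higher, with a median log2 change of 2.12. The median over all tested rows was −1.01. Of those rows 175 were higher and 180 lower, all picked for a large change, so that median describes no typical row. The filter kept genes partly through the group where they were high, so these figures support nothing about histone genes as a class.

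The linker histone genes had the most histone counts. Hist1h1e (ENSMUSG00000051627, chr13:23620629-23622558, minus strand) stood at 3.00, 3.11 and 1.06 CPM with MGH-CP1 and at 0.471, 0.293 and 0.250 CPM in vehicle. MGH-CP1 replicate 3 was well below replicates 1 and 2 but above every vehicle library. The log2 change was 2.82 with SE 0.451 (adjusted p = 0.000251, quasi-likelihood test of edgeR, Benjamini-Hochberg). The 3' part of its gene model overlaps an exon of Hist1h2be by 496 bases and the pseudogene Gm11398 by 320 bases, all on the same strand. Hist1h1d (chr13:23553262-23560686) stood at 1.56, 2.36 and 2.20 CPM against 0.345, 0.234 and 0.875 CPM, with vehicle replicate 3 far above the other vehicle libraries. Its log2 change was 2.02 with SE 0.425, or 2.80 without that library.

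The H3 genes are near copies: the coding sequences of Hist1h3a, Hist1h3d, Hist1h3e and Hist1h3i, each 411 bases, differed by 6 to 13 bases between pairs (96.8% to 98.5% identity). Hist1h3e had 14, 30 and 17 counts with MGH-CP1 and 14, 4 and 2 in vehicle. Vehicle replicate 1 matched MGH-CP1 replicate 1 in counts, and lay below it only in CPM (0.440 against 0.576 CPM). Its log2 change was 2.23 with SE 0.637, or 3.43 without vehicle replicate 1. Hist1h3i had 10, 12 and 15 counts against 0, 2 and 1, a pooled share 19.3 times higher (exact 95% interval 6.10 to 97.6); its fitted log2 change was 4.08, or 4.91 without vehicle replicate 2. Hist1h3d had 7, 12 and 20 counts against 5, 1 and 2, and Hist1h3a had 21, 13 and 3 against 1, 0 and 4. Both lay under the count filter, and in Hist1h3a MGH-CP1 replicate 3 was lowest, with fewer counts than vehicle replicate 3 and a higher share only in CPM, while in Hist1h3d it was highest.

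The H4 genes differed more in their 312 coding bases, by 19 to 32 bases between pairs. Hist1h4k was even within both groups, at 0.740, 0.552 and 0.633 CPM with MGH-CP1 and 0.188, 0.205 and 0.225 CPM in vehicle. The log2 change was 1.62 with SE 0.358. Hist1h4d had 13, 15 and 10 counts against 8, 5 and 2, with a log2 change of 1.94 (SE 0.520). Hist2h4 had 8, 14 and 1 counts against 0, 1 and 1, a pooled share 18.0 times higher (exact 95% interval 4.44 to 157), with MGH-CP1 replicate 3 near the vehicle libraries.

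The H2A genes had few counts. Hist1h2ab had 8, 11 and 6 counts against 0, 1 and 0, a pooled ratio of 39.0 whose exact 95% interval started at 6.39. Hist1h2ak had 1, 6 and 7 counts against 1, 0 and 0, a pooled ratio of 21.9 with an interval from 3.32. Hist1h2af had 3, 3 and 8 counts against 0 in all 3 vehicle libraries, and its pooled share was at least 7.28-fold higher, taking 3 counts over the vehicle group as the floor. Pairs of their 393 coding bases differed by 10 to 14 bases, and each overlaps a miRNA-annotated gene on the opposite strand. Over all 12 histone genes the median pooled ratio was 7.45, with Hist1h2af at its bound. These intervals cover counting error only.

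The gene models bear on what the histone counts hold. The histone stem loop, searched on the sense strand of annotated transcripts, was found in 38 of 141767 transcripts, and 34 of the 36 genes with it were histone genes. It lay in the models of 6 of the 12 listed histone genes, 31 to 46 bases after the coding sequence. The form in Hist1h1e is printed beside that in Hist1h4d, the only listed gene in which it differed, with the loop in capitals, at chr13:23621782-23621797 (minus strand) and chr13:23581950-23581965 (plus strand).
Hist1h1e stem loop: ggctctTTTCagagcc
Hist1h4d stem loop: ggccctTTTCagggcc
The models of Hist1h1d, Hist1h1e, Hist1h4d and Hist1h3d run on for 4884, 1153, 770 and 752 bases after the stem loop, whereas those of Hist1h3a and Hist1h2ab end within 37 and 11 bases. The models of Hist1h3i, Hist1h4k and Hist1h2ak are the coding sequence alone. Counts over a gene therefore mix reads before and after the stem loop in some genes and not in others, and the split within a gene is not in a table of gene counts.

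**Figure D3:**
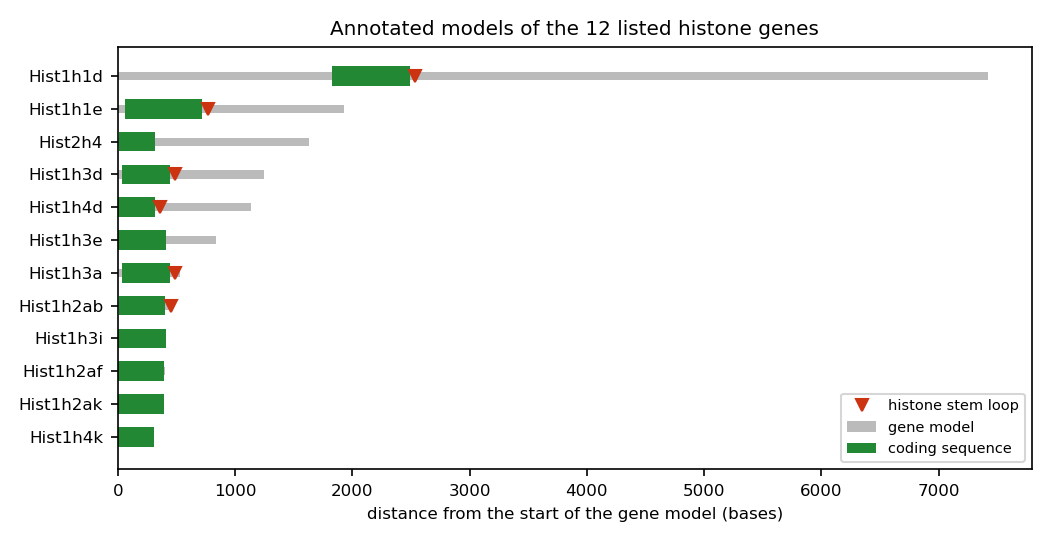
Annotated model of each listed histone gene, as distance in bases from the start of the model: grey, whole model; green, coding sequence; red triangle, histone stem loop. The models of Hist1h1d, Hist1h1e, Hist1h3d and Hist1h4d extend 752 to 4884 bases past the stem loop, and 6 models hold no match.

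Promoters are shown for 3 histone genes that were higher together and differ in family. RefSeq sequences (GRCm38.p6; 250 bases before to 50 after the gene start) matched 10 of the 12 histone genes. Capitals mark CCAAT and TATAAA on either strand; the motifs share no overlap. The windows are chr13:23622509-23622808 for Hist1h1e (RefSeq H1f4), chr13:21783348-21783647 for Hist1h3i (H3c11) and chr13:21750504-21750803 for Hist1h4k (H4c12), all on the minus strand.
Hist1h1e promoter: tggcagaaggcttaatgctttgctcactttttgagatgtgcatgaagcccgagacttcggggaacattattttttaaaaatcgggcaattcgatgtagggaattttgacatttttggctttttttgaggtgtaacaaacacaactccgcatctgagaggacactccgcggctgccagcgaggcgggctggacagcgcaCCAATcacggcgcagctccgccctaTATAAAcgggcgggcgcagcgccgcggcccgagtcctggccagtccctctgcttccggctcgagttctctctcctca
Hist1h3i promoter: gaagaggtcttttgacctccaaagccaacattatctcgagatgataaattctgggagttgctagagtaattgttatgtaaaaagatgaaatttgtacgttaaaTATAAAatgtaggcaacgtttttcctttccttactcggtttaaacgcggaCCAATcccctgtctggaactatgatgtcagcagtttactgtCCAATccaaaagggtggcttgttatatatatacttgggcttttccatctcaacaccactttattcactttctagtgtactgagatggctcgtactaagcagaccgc
Hist1h4k promoter: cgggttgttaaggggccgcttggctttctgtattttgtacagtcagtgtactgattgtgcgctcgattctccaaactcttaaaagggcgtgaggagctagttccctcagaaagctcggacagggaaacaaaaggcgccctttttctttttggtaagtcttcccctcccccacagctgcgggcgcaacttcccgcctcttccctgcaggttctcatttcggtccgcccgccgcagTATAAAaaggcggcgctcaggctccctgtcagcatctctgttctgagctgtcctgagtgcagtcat
CCAAT was in 9 of the 10 matched promoters and TATAAA in 8, against 37.4% and 13.6% of all 32851 promoters of this length. Unlisted histone promoters were not compared, so these shares do not set the listed genes apart from other histone genes. The counts take a motif at any position in the window. In Hist1h1e TATAAA begins 27 bases before the start, in Hist1h4k 16 bases and in Hist1h3i 147 bases before it. In Hist1h3d the first TATAAA begins 168 bases before the start, and in Hist1h2ak it begins after the start.

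Genes that serve histone messages were not among the listed ones: 0 of 18 genes for histone message 3' processing and histone supply (among them Slbp, Lsm11, Npat and Eri1) and 0 of 10 replication-independent histone genes were in either table. The same held for 18 genes of the nuclear exosome and RNA decay and for 17 snoRNA host genes. Of 7 nuclear long non-coding RNA genes, 3 were listed, all higher: Malat1 at 465 ± 54.1 CPM against 94.95 ± 26.7, Kcnq1ot1 at 4.46 ± 0.539 against 1.51 ± 0.315, and Xist at 387 ± 58.7 against 191 ± 49.7 (SD, n = 3).

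The order of the replicates differed among the 25 genes. In 12 of 25 genes (48%) the level was highest in MGH-CP1 replicate 2, then 1, then 3. This order was seen in 17% of the 446 other rows and in 20.4% of the 245 other rows listed as higher. The 12 genes were CT010467.1, the 4 miRNA-annotated genes, mt-Rnr1, mt-Tq, Rn7sk, Hist1h1e, Hist1h4d, Hist1h2ab and Hist2h4. In 14 of 25 genes vehicle replicate 1 was the highest of its group, against 31.8% of the other rows and 22% of those listed as higher. The histone genes were mixed, with 7 of 12 highest in MGH-CP1 replicate 2 and 5 of 12 in vehicle replicate 1. Genes of 1 library share its preparation and depth, so these counts are a description of 6 libraries and not of separate measurements; the part of library preparation in the levels was not tested.

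**Figure D4:**
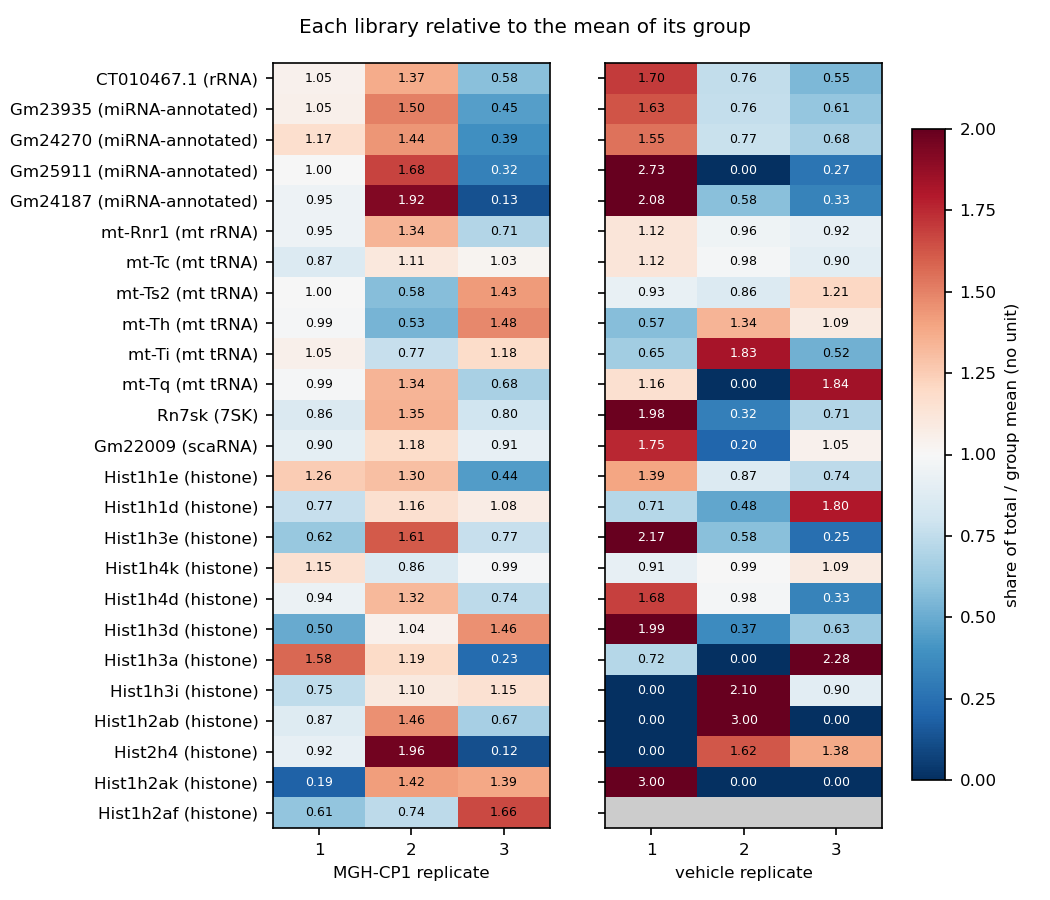
Share of each gene in each library divided by the mean of its group, no unit, for MGH-CP1 (left) and vehicle (right), red above and blue below 1; the colour scale stops at 2, and the gene with 0 vehicle counts is grey. CT010467.1, the miRNA-annotated genes, mt-Rnr1 and Rn7sk are among the 13 genes highest in both MGH-CP1 replicate 2 and vehicle replicate 1, whereas mt-Th and mt-Ts2 are highest in MGH-CP1 replicate 3.

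Library totals were 19934012 to 24310817 counts with MGH-CP1 and 31852117 to 40020833 in vehicle, so the group in which the 25 genes were higher was the shallower one. Of 17 endothelial marker genes, Vwf was in the MGH-CP1 table (0.729 ± 0.326 CPM against 2.39 ± 0.321), and Kdr, Notch1, Fli1 and Gata2 were in the dinaciclib table, at 49.2 to 815 CPM in the vehicle libraries. Of 8 leukocyte markers Cd68 was higher (1.95 ± 0.624 CPM against 0.436 ± 0.181) and Lyz2 lower (3.30 ± 0.912 against 6.68 ± 0.597), and none of 14 fibroblast, mural, epithelial or erythroid markers was listed. Their part in the results was not tested.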

How the data were processed

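RNA sequencing was analysed from a table of raw read counts per gene, deposited by the authors, for 3 MGH-CP1 and 3 vehicle libraries. The submitters' processing notes name DESeq2 1.20.0, featureCounts 1.5.0-p3, HISAT2 2.0.5 and fastp; the build is not given in the sources used here. Positions and strands of all 25 genes equal those of GENCODE M21 (GRCm38), which was used for annotation and sequence. Per the file headers, FPKM columns, log2 fold changes, p-values and gene lengths were deposited too; on the values, the authors' normalised signal is the count over 1 size factor per library.

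Library totals were recovered from count, FPKM and length (100% of values within 0.1%). Levels are shares of these totals. The fit was edgeR 4.0.16 in R 4.3.3, quasi-likelihood, two-sided, with totals as library sizes, a minimum count of 10 (filterByExpr) and an adjusted p threshold of 0.05, checked on simulated data. DESeq2 1.42.0 was an alternative. Near copies were searched with blastn 2.17.0, and figures drawn with matplotlib 3.10.9. Library pairs were not duplicates: their chi-square was at least 14.7 times its degrees of freedom. The members, gene lists and named genes (the 4 with the largest share per class, every histone gene, listed genes of the fixed lists) were chosen with earlier results of these data known.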

Additional observations from a re-analysis of the deposited data

How the results depend on the processing

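The direction and the call of the 16 tested genes held in all 200 refits of single genes in which they could be tested. The refits used the authors' size factors, TMM factors over the listed genes, DESeq2 and other count filters. Others used libraries thinned to the smallest total, a replicate block, and each library left out in turn. All 16 genes had been picked on these same libraries, and all 355 tested rows were called in the main fit. The refits therefore add no independent support for these genes. TMM moved the log2 changes of the 355 tested rows by a median of 0.13, over rows that had all been picked for change. The number of the 25 genes called was 25 with no filter on low counts, where 471 of 471 tested rows were called. It was 10 with a minimum count of 30, where 245 of 245 tested rows were called. More or fewer genes were tested in these settings. With a library left out it was 17 to 21, beside 365 to 386 of the 368 to 393 tested rows. Without vehicle replicate 2 or 3, 19 of 20 tested genes were called. All called genes were higher. With the replicate block 16 were called, as without it. The labels do not say whether equal replicate numbers pair the libraries. Same-numbered libraries had correlations of 0.0501, −0.129 and 0.161 in their deviations from the group means. Libraries with different numbers had correlations from −0.248 to 0.215. With so few libraries, and rows picked for change, these values cannot decide whether the libraries were paired. Leaving out a library leaves 2 in its group.

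The log2 ratio of summed shares was 1.49 for mitochondrial tRNA genes and 2.93 without mt-Tc; for miRNA-annotated genes it was 2.87 and 5.11 without Gm23935. Over left-out libraries it ran from 1.04 to 1.502 for mitochondrial rRNA, 1.38 to 1.55 for mitochondrial tRNA, 2.45 to 3.41 for miRNA-annotated genes, 2.70 to 3.62 for rRNA, 2.29 to 3.68 for Rn7sk, 3.99 to 5.15 for scaRNA, 2.38 to 2.75 for histone genes and 2.54 to 3.43 for all 25. Thinning moved the log2 change of Gm22009 from 4.44 to 5.15 and that of Gm25911 from 5.16 to 4.51. Groups stayed apart for 24 to 25 genes with a library left out and for 22 after thinning. In the main setting the groups overlapped in only 11 of all 471 rows, which had been picked on these libraries. Leaving out a library can only make overlap rarer. The number of all rows that stayed apart with a library left out or after thinning was not taken. The values for the 25 genes therefore do not set them apart from the other listed rows. The order of the MGH-CP1 libraries was also read on the authors' size factors, chosen after seeing the data. On both scales 17 genes were highest in replicate 2, beside 40.6% of the 446 other rows on shares of the total. The size factors follow the library totals closely, so the order could hardly differ and this is not a separate check. Depth limits the 9 untested genes, in which no library had more than 25 counts.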
